A study of Mus musculus with 12 samples.

Results

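The miR-379 to miR-410 cluster is a run of miRNA hairpins on mouse chromosome 12, inside the imprinted domain between the genes Dlk1 and Dio3. Its members were chosen by name: mature miRNAs of 35 hairpin numbers, on the 5p or the 3p side of the hairpin, with at least 1 read in the 6 miRNA libraries. Of the 70 names this allows, 68 stood in the miRNA table and 11 of those had 0 reads, which left 57 members from 33 hairpins, of 1123 mature miRNAs with reads. The libraries came from 4T1 tumours, grown in Balb/c mice from a mouse mammary carcinoma line. Stressed mice had been restrained for 2 hours on each of 28 days, and control mice were untreated. The tumours were removed 35 days after the cells were inoculated, and each group had 3 miRNA and 3 mRNA libraries. The labels give no further genotype and do not tie each library to its own mouse, so p-values measure the spread between these libraries.

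miRNAs are short RNAs that guide Argonaute proteins to messages with a site complementary to their bases 2 to 8, the seed. The hairpins of this cluster are transcribed from the maternal chromosome only, downstream of the noncoding RNAs Meg3 and Rian and partly within the noncoding RNA Mirg, while the paternal chromosome expresses Dlk1, Rtl1 and Dio3. The cluster is known for its high level in embryo, placenta and brain and its low level in most adult tissues, and in neurons the transcription factor MEF2 drives it.

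The 7 most abundant members hold most of the cluster's reads, and their reference sequences give the seed that goes with each name. Counts by name do not show the sequence of the reads themselves. They are printed 5′ to 3′ from RefSeq's mouse annotation (GRCm38.p6), with the seed in capitals.
miR-379-5p: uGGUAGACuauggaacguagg
miR-381-3p: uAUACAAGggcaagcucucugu
miR-541-5p: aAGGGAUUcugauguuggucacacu
miR-411-5p: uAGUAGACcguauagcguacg
miR-300-3p: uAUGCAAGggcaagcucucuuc
miR-134-5p: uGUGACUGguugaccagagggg
miR-299a-3p: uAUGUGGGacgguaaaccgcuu
No seed is shared among these 7. miR-381-3p and miR-300-3p differ at 3 of 22 positions, so reads may be uncertain between them. miR-379-5p has the seed of miR-1193-5p, which lies outside the named set.

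A mature sequence was found for 54 of the 57 members, with 50 distinct seeds. Only 4 seeds belonged to more than 1 member, and these were pairs: miR-379-3p with miR-411-3p, miR-299a-3p with miR-299b-3p, miR-410-5p with miR-494-5p, and miR-376b-5p with miR-376c-5p. Stretches of 7 bases recurred among the 3p arms, some of them reaching into the seed. The letters GGUCCAC stood in 5 members (9.26% of 54), which were also the only 5 of 1679 mature mouse miRNAs with them (0.298%).
miR-379-3p: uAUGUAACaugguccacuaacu
miR-411-3p: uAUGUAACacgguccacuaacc
miR-380-3p: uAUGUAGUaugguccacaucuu
miR-758-3p: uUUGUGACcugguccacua
miR-412-3p: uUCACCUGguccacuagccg
The letters UACACGG stood in 4 members and in no other of the 1679 (0.238%).
miR-494-3p: uGAAACAUacacgggaaaccuc
miR-485-3p: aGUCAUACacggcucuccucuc
miR-323-3p: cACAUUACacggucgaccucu
miR-154-3p: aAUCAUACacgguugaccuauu
Both stretches were searched on the given strand of the mature RNA and were chosen after the sequences were seen. They are a description of the family likeness of these hairpins. miR-379-3p and miR-411-3p differ at 2 of 22 positions, and miR-376b-5p and miR-376c-5p at 1 of 22, so the counts of each pair are uncertain between its members.

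The hairpins with a position in RefSeq numbered 32 of 33 and spanned 34.7 kb of chromosome 12, from 109709060 (start of Mir379) to 109743795 (end of Mir410) on GRCm38. All but Mir299b lie on the plus strand. In GENCODE M21, 11 hairpins lie within Mirg (109729764 to 109749460), 8 in its exons and 3 in its introns, and 21 lie in no annotated gene of the same strand. The most abundant hairpin, Mir379 (109709060 to 109709125), lies in no annotated gene, as do Mir411 (109710175 to 109710256), Mir300 (109724313 to 109724391) and Mir381 (109726822 to 109726896). Mir541 (109742409 to 109742498) lies in an intron of Mirg, and Mir410 in an exon.

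The miRNA libraries held between 1738056 and 3202224 counts, of which 41.7% to 45.2% were miR-21a-5p. No 2 libraries of a group agreed within sampling noise: a chi-square of their counts per degree of freedom lay between 35.4 and 247. The cluster took 0.221%, 0.575% and 0.413% of all counts in control replicates 1, 2 and 3. Its shares in stress replicates 1, 2 and 3 were 0.215%, 0.193% and 0.104%. The exact (Clopper-Pearson) 95% intervals were narrow, for example 0.214% to 0.227% in control replicate 1 and 0.0994% to 0.109% in stress replicate 3. They cover counting error within each library only, with every read taken as independent, and not the spread between libraries. The share in stress replicate 1 lay within the interval of control replicate 1, and the other 2 controls lay above every stress library.

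Scaled to CPM (counts per 1000000 of the library size, with edgeR's TMM factors), the summed cluster level was 2113, 5809.9 and 4311 CPM in control replicates 1 to 3. It was 2177, 1720.4 and 1143 CPM in stress replicates 1 to 3. The group means were 4078 ± 1859 (SD, n = 3) and 1679.9 ± 518, a 2.43-fold lower level in stressed tumours (log2 ratio -1.28). The groups overlapped, because control replicate 1 stood below stress replicate 1. In bulk tumour RNA, fewer cells of a type and less RNA per cell cannot be told apart.

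A few members made up the sum. miR-379-5p alone held 31.9% of the 45223 member reads, the top 3 held 61.5% and the top 15 held 93.4%. The low-count filter (about 4.20 CPM in at least 3 libraries) kept 30 members of 462 miRNAs in all. A member can pass through the control libraries alone: 16 of the 30 exceeded the line in all 3 stress libraries, and 2 exceeded it in none of them.

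Each of the 30 tested members had a lower fitted level in stress, and none passed the threshold in edgeR's quasi-likelihood test (adjusted p from 0.138 to 0.632). Over all 462 tested miRNAs the same test also called 0 (0.0%). At an unadjusted p under 0.05 stood 22 of the 30, all lower, beside 70 lower among the 462 (15.2%) and 110 in either direction (23.8%). That count of members was 12 of 29 without control replicate 2, beside 51 of 465 miRNAs in either direction. Without control replicate 3 it was 16 of 29, beside 60 of 463 miRNAs. Without stress replicate 3 it was 16 of 36, beside 66 of 497 miRNAs. The median log2 fold change of the 30 was -1.44 (2.70-fold lower), against 0.02 over all tested miRNAs, of which 46.5% were below 0. For the 16 members above the filter line in every stress library the median was -1.33. The 30 differences ran from -2.08 for miR-380-3p to -0.58 for miR-666-5p.

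**Figure D1:**
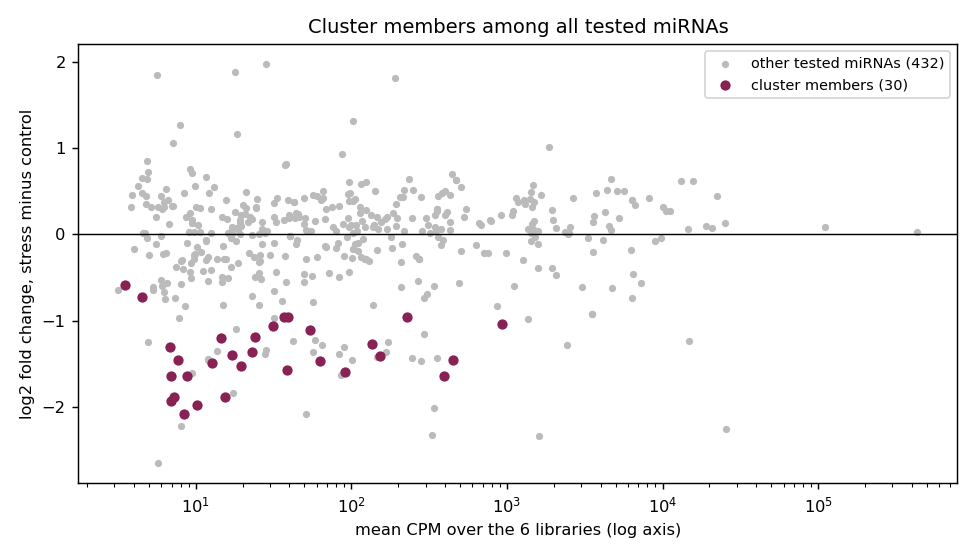
Log2 fold change (stress minus control) against mean CPM on a log axis for the 462 tested miRNAs, with the 30 tested cluster members in dark red. Every cluster member lies between -2.08 and -0.58, below 0, while the median of all points is 0.02.

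The calls depended on the tool, the filter and 1 library. DESeq2 called 9 of the 32 members to which it gave an adjusted p, all lower, beside 24 of 470 miRNAs called lower in all (5.11%) and 32 called in either direction (6.81%). edgeR without the filter called 24 of 57 members lower, beside 51 of 1123 lower (4.54%) and 69 in either direction (6.14%). Without control replicate 1, edgeR called 24 of 35 tested members lower, beside 64 of 494 lower (13.0%) and 82 in either direction (16.6%). The members' median was then -1.72. With any other single library left out no member was called, and the median ran from -1.07 without control replicate 2 to -1.62 without stress replicate 1. The 8 members called in all 3 of these settings were miR-381-3p, miR-299a-3p, miR-379-3p, miR-300-3p, miR-134-5p, miR-376c-3p, miR-494-3p and miR-299a-5p. How many of all miRNAs were called in all 3 was not counted. The settings share their libraries, so a call in each is no independent repeat.

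miR-379-5p, the first and most abundant member, stood at 639, 1746 and 1349 CPM in control replicates 1 to 3. In stress replicates 1 to 3 it stood at 812, 568 and 433 CPM. Control replicate 1 lay among the stress libraries, so the groups overlapped. The difference was -1.04 ± 0.39 (SE) on the log2 scale, 2.06-fold lower, with an edgeR adjusted p of 0.181 (0.0138 without control replicate 1). Its neighbour miR-411-5p had 155.2, 438 and 310.3 CPM in control and 198.7, 184 and 82.1 CPM in stress. Here too control replicate 1 lay below 2 stress libraries, and the difference of -0.96 ± 0.45 had an edgeR adjusted p of 0.244.

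The 3p arms of these 2 hairpins, which share a seed, were scarce. miR-379-3p had 10.1, 21.2 and 17.9 CPM in control and 6.80, 3.11 and 1.89 CPM in stress. All 3 stress libraries lay below all 3 controls, and the difference was -1.98 ± 0.48 (3.93-fold lower, edgeR adjusted p = 0.138, DESeq2 adjusted p = 0.0193). It was -2.66 without stress replicate 1. miR-411-3p had 7.78, 31.0 and 18.3 CPM in control and 9.82, 7.11 and 2.53 CPM in stress. Its groups overlapped at control replicate 1, with a difference of -1.49 ± 0.59 (edgeR adjusted p = 0.191). Their relative miR-380-3p had the lowest fold change of the tested members, -2.08 ± 0.66 (4.22-fold lower, edgeR adjusted p = 0.165). It had 4.58, 22.2 and 14.7 CPM in control against 5.29, 2.67 and 1.26 CPM in stress. Stress replicate 1 exceeded control replicate 1 in this member.

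miR-381-3p, second by level, stood at 374, 879.6 and 736 CPM in control replicates 1 to 3. Its stress libraries stood at 257, 271 and 194 CPM, all below the lowest control. The difference was -1.46 ± 0.32 (2.75-fold lower), with an adjusted p of 0.138 in edgeR and 0.00536 in DESeq2. Its near copy miR-300-3p had 113, 326 and 231 CPM in control and 100.1, 87.5 and 63.1 CPM in stress. Again every stress library was below every control, with a difference of -1.41 ± 0.39 (edgeR adjusted p = 0.144, DESeq2 adjusted p = 0.0210). Given the shared letters, the 2 values may not be independent.

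Among the hairpins within Mirg, miR-541-5p was the most abundant, with 281, 879 and 632 CPM in control and 265, 186 and 121 CPM in stress. The groups did not overlap, though control replicate 1 and stress replicate 1 were close. The difference was -1.65 ± 0.45 (3.13-fold lower, edgeR adjusted p = 0.144, DESeq2 adjusted p = 0.0193). miR-134-5p, known in neurons for limiting dendritic spine size through the kinase Limk1, had 110.3, 243 and 226 CPM in control. In stress it had 108, 72.9 and 59.4 CPM, so the groups were separated only narrowly. Its difference was -1.27 ± 0.35 (edgeR adjusted p = 0.144, DESeq2 adjusted p = 0.0292).

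Other members from Mirg stood at lower levels, again with control replicate 2 highest and control replicate 1 the lowest control. miR-409-3p had 46.7, 134 and 96.1 CPM in control and 49.1, 32.4 and 17.05 CPM in stress, a difference of -1.47 ± 0.48 with overlapping groups (edgeR adjusted p = 0.165). miR-382-3p had 45.8, 120.3 and 58.0 CPM in control and 38.1, 44.4 and 20.8 CPM in stress, a difference of -1.11 ± 0.43 without overlap (edgeR adjusted p = 0.187). miR-382-5p, from the other arm, had 23.3, 83.9 and 47.6 CPM in control and 38.5, 23.5 and 17.05 CPM in stress, with overlap. Its difference of -0.96 ± 0.49 had an unadjusted p above 0.05 (edgeR adjusted p = 0.276).

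miR-409-5p had 24.7, 62.7 and 40.4 CPM in control and 32.5, 19.99 and 7.58 CPM in stress, with overlapping groups and a difference of -1.06 ± 0.52 (edgeR adjusted p = 0.262). miR-369-3p is known for promoting translation of AU-rich messages in quiescent cells. It had 16.9, 57.3 and 26.4 CPM in control and 18.5, 15.1 and 4.42 CPM in stress, a difference of -1.36 ± 0.58 with overlap at control replicate 1 (edgeR adjusted p = 0.209). miR-410-3p, the last member in the row, had 18.8, 53.2 and 28.7 CPM in control and 16.996, 15.99 and 10.7 CPM in stress. Its groups did not overlap, and the difference was -1.19 ± 0.41 (edgeR adjusted p = 0.172).

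Both arms of miR-299a were lower in every stress library than in any control. miR-299a-3p had 78.7, 188 and 146 CPM in control and 53.6, 52.9 and 29.7 CPM in stress. The difference was -1.59 ± 0.37 (3.02-fold lower, edgeR adjusted p = 0.138, DESeq2 adjusted p = 0.00793). The minor arm miR-299a-5p had 5.49, 16.05 and 11.7 CPM in control and 3.02, 3.55 and 1.89 CPM in stress, a difference of -1.93 ± 0.48 (edgeR adjusted p = 0.138). miR-299b, on the opposite strand of the same locus, had 2 reads in all, from its 3p arm. Its 18 listed bases are contained in miR-299a-3p.

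Of the members between Mir299a and Mir300, miR-494-3p had 25.6, 89.0 and 59.3 CPM in control and 23.8, 20.4 and 13.9 CPM in stress. Control replicate 1 was the nearest to the stress group, which still lay wholly below it. The difference was -1.57 ± 0.45 (edgeR adjusted p = 0.155, DESeq2 adjusted p = 0.0306). miR-376c-3p, of a family known for A-to-I editing of its hairpins, had 18.8, 34.6 and 21.5 CPM in control. It had 10.6, 11.5 and 5.68 CPM in stress, a difference of -1.40 ± 0.36 without overlap (edgeR adjusted p = 0.139). Its relative miR-376b-3p had 8.70, 41.6 and 23.5 CPM in control and 7.93, 9.33 and 1.89 CPM in stress, with overlap (-1.89 ± 0.65, edgeR adjusted p = 0.172).

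The arms of miR-329 overlapped between groups. miR-329-5p had 26.1, 71.5 and 49.9 CPM in control and 38.9, 19.5 and 16.4 CPM in stress (-0.96 ± 0.45, edgeR adjusted p = 0.245). miR-329-3p, whose seed is also that of miR-362-3p, had 11.9, 43.0 and 31.9 CPM in control and 10.6, 12.4 and 6.95 CPM in stress (-1.52 ± 0.48, edgeR adjusted p = 0.165). miR-485 gave the widest contrast between its arms. miR-485-3p had 5.04, 19.7 and 9.45 CPM in control and 3.40, 2.67 and 3.16 CPM in stress, without overlap (-1.89 ± 0.55, edgeR adjusted p = 0.155). miR-485-5p, known to repress the synaptic vesicle protein Sv2a in neurons, had 0.458, 9.85 and 6.84 CPM in control and 5.29, 4.00 and 0.631 CPM in stress. With -0.72 ± 0.85 (edgeR adjusted p = 0.632) it had the largest p of the 30.

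**Figure D2:**
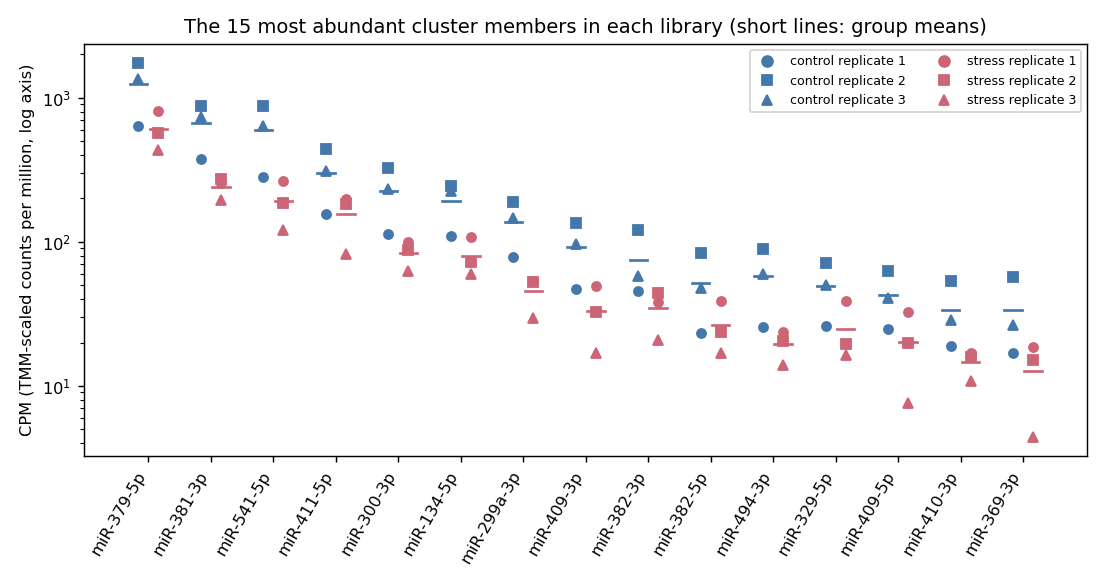
CPM on a log axis of the 15 most abundant members in each library, with control in blue, stress in red, a marker shape per replicate number and a short line at each group mean. Control replicate 2 is the highest point for each member shown, and control replicate 1 is the lowest control.

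The remaining 6 tested members were miR-495-3p, miR-679-5p, miR-154-5p, miR-543-3p, miR-323-3p and miR-666-5p. miR-679-5p and miR-323-3p did not overlap between groups (-1.64 ± 0.45 and -1.31 ± 0.55). miR-543-3p had 0 reads in stress replicate 3, a count that allows up to 1.89 CPM there, and the largest error (-1.64 ± 1.01). miR-666-5p had the smallest difference, with 3.20, 5.11 and 4.56 CPM in control and 3.02, 4.00 and 1.26 CPM in stress.

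In 14 of the 30 tested members the groups were fully apart, all lower in stress, beside 66 of the 462 tested miRNAs (14.3%). In the 16 members that overlapped, control replicate 1 stood at or below the highest stress library. Control replicates 2 and 3 were above every stress library in all 30, beside 125 of the 462. Control replicate 2 was the highest of the 6 libraries in 30 members, beside 116 of the 462 tested miRNAs. Stress replicate 3 was the lowest in 27 members, beside 122 of the 462. As a share of a member's own mean over the 6 libraries, the median was 72.3%, 217% and 144.6% in control replicates 1 to 3. In stress replicates 1 to 3 it was 69.5%, 60.1% and 32.8%, whereas over all tested miRNAs the medians lay between 95.7% and 101% in every library.

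The differences were of like size at high and low levels. The 6 members with a mean above 100 CPM had a median log2 fold change of -1.34, the 9 between 20 and 100 CPM -1.19, and the 15 below 20 CPM -1.52. Spearman's rho between fold change and mean CPM across the 30 members was 0.19. This correlation is across members of the same 6 libraries, which are no independent replicates.

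They were also of like size along the cluster. The 18 tested members ahead of Mirg had a median of -1.51 and a range of -2.08 to -0.96. The 11 within Mirg had a median of -1.27 and a range of -1.89 to -0.72. Across 29 members with a hairpin position, rho between fold change and position was 0.23. No test was run on this difference, since members from one transcript share their source.

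**Figure D3:**
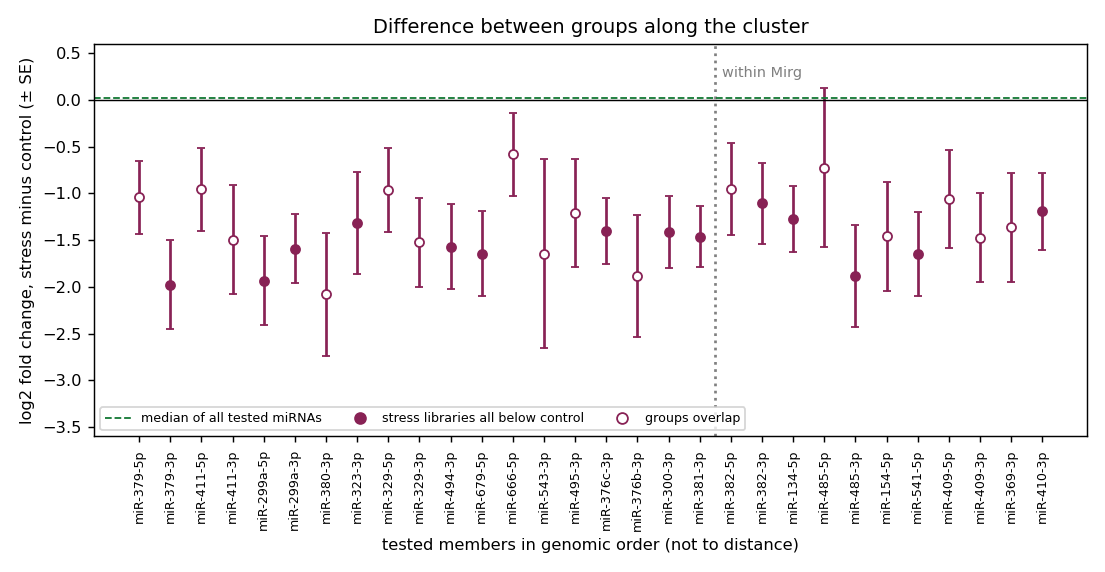
Log2 fold change with its SE for the 30 tested members in genomic order, filled where all stress libraries lie below all controls and open where the groups overlap, with a dotted line at the start of Mirg. Filled and open points are mixed along the whole row, and each point is below the dashed median of all tested miRNAs at 0.02.

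The other 27 members did not pass the low-count filter, with 1 to 87 reads each (median 11) and 609 reads together. In edgeR without the filter, miR-667-5p, miR-667-3p, miR-154-3p and miR-487b-3p among them were called lower, beside 51 of all 1123 miRNAs (4.54%). These counts were low: miR-487b-3p had 7, 15 and 11 reads in control and 5, 0 and 0 in stress. The control mean was above the stress mean in 23 of the 27 and below it in 4. That split was not counted over all miRNAs under the filter. Among the more abundant, miR-376b-5p had 7, 35 and 25 reads in control and 9, 7 and 4 in stress, and miR-380-5p had 7, 33 and 18 reads in control and 7, 6 and 6 in stress. miR-667-5p had 2, 14 and 13 reads in control and 1 in each stress library. At the other end, miR-412-3p and miR-654-3p had 1 read each, both in control replicate 2. Libraries missed between 2 members (control replicate 2) and 15 members (stress replicate 3, the shallowest).

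Arm use was strongly one-sided in most hairpins. Of the 22 hairpins with at least 100 reads, 15 gave mainly the 3p arm and 7 mainly the 5p arm, and 14 gave over 90% of reads from one arm. miR-381 (0.0282% from the 5p arm), miR-300 (0.372%) and miR-494 (0.487%) were nearly pure 3p. miR-541 (99.8% from the 5p arm) and miR-134 (99.8%) were nearly pure 5p. miR-409 (33.1%) and miR-382 (42.0%) delivered both.

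In the 7 hairpins with both arms tested, the 3p arm had the lower log2 fold change in 6, miR-299a being the exception. The arm with the lower value was the scarcer one in miR-379, miR-411, miR-329 and miR-299a, but not in miR-409, miR-382 and miR-485. Passing the filter mainly through control favours low values: miR-485-3p and miR-299a-5p exceeded its line in 0 stress libraries, miR-379-3p in 1 and miR-411-3p in 2. Arm side, level and filter were not tested apart, and miR-379-3p and miR-411-3p counts are uncertain between the pair. The 5p share of miR-379 was 98.4%, 98.8% and 98.7% in control and 99.2%, 99.5% and 99.6% in stress, so every stress library was above every control. For miR-411 it was 95.2%, 93.4% and 94.4% in control and 95.3%, 96.3% and 97.0% in stress, also without overlap. For miR-299a it was 6.52%, 7.86% and 7.44% in control and 5.33%, 6.30% and 6.0% in stress, in the opposite direction. These 3 shifts had a two-sided exact permutation p of 0.1, the smallest that 3 libraries against 3 allow, and an adjusted p of 0.233 over the 7 hairpins. The other 4 hairpins had an exact permutation p of 0.3 to 0.6. Over all tested members, the 12 from 5p arms had a median log2 fold change of -1.05 and the 18 from 3p arms -1.48.

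**Figure D4:**
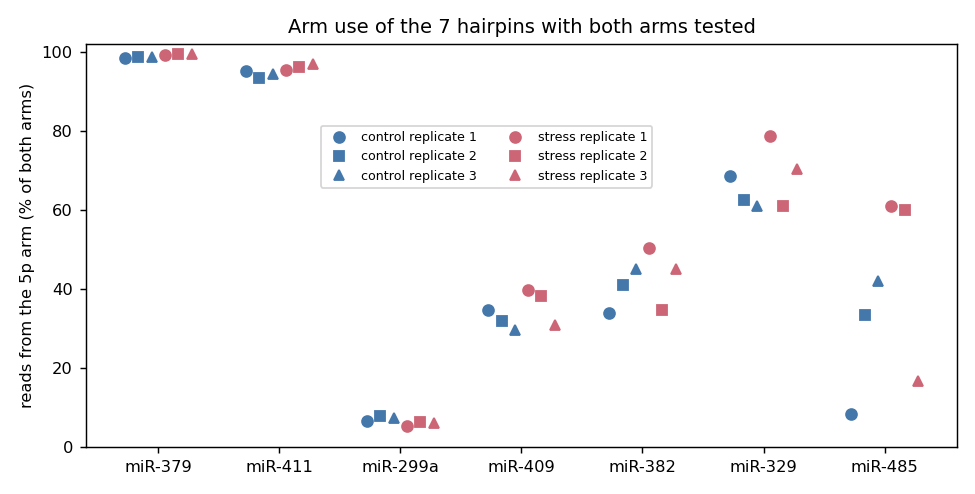
Share of reads from the 5p arm, in percent of both arms, for each library of the 7 hairpins with both arms tested, with control in blue and stress in red. miR-379 and miR-411 lie near the top and miR-299a near the bottom, each with group means less than 2 percentage points apart and no overlap, while miR-485 is widely scattered.

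Other miRNAs of the Dlk1-Dio3 domain, outside the named cluster, had 13 tested members. All 13 were lower in stress with an unadjusted p under 0.05 while none passed adjustment in the filtered edgeR fit of all 6 libraries. At that unadjusted line 15.2% of all tested miRNAs were lower. DESeq2 called 3, edgeR without the filter 7, and edgeR without control replicate 1 called 9. Over all miRNAs these fits called 5.11%, 4.54% and 13.0% lower. Of the 13, 8 had groups that did not overlap, beside 14.3% of all tested miRNAs (median log2 fold change -1.41, range -2.65 to -1.28). The most abundant was miR-127-3p, which is antisense to Rtl1 and known to cleave its message (-1.29 ± 0.46, edgeR adjusted p = 0.178). miR-434-5p (-1.47 ± 0.49, edgeR adjusted p = 0.165) and miR-136-3p (-1.36 ± 0.49, edgeR adjusted p = 0.178) followed. miR-337-3p, the miRNA in the study's title, comes from a hairpin 123 kb upstream of Mir379. It had 11, 48 and 22 reads in control and 3, 5 and 2 reads in stress (-2.65 ± 0.63, edgeR adjusted p = 0.138, DESeq2 adjusted p = 0.0193). Without control replicate 2 the difference was -1.96.

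The cluster varied between libraries much as the rest of its domain did. The summed cluster level was between 77.0% and 112% of the summed level of these other domain miRNAs in the 6 libraries, a 1.45-fold range, while the cluster itself varied from 1143 to 5809.9 CPM. Both sums had control replicate 2 highest and stress replicate 3 lowest.

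Marker miRNAs of mesenchymal cells and of muscle were lower in the same libraries as the cluster. The 5 mesenchymal miRNAs, all detected in every library, were lower in 5 of 5 (median -1.23, 3 without overlap). Of all tested miRNAs 14.3% were lower without overlap. In edgeR with the filter and all 6 libraries none was called and 4 had an unadjusted p under 0.05. Lower at that line were 15.2% of all tested miRNAs. DESeq2 and edgeR without the filter called 3 each, and edgeR without control replicate 1 called 5. Over all miRNAs these fits called 5.11%, 4.54% and 13.0% lower. Their sum was 16175 to 36723 CPM in control and 10912 to 13260.1 CPM in stress. miR-143-3p, abundant in fibroblasts and smooth muscle, led them (-1.23 ± 0.25, edgeR adjusted p = 0.138). It averaged 20641 of the summed 27668 CPM in control and 8771 of 12342 CPM in stress, so the mesenchymal sum is mainly this miRNA. The cluster amounted to 10.5% to 16.9% of the mesenchymal sum, with 14.4% ± 1.38 (SD, n = 3) in control and 13.5% ± 3.26 in stress. The part of these cells in the result was not tested.

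The muscle miRNAs were lower in 5 of 5 tested (median -2.26), without overlap in any, beside 14.3% of all tested miRNAs. In edgeR with the filter and all 6 libraries none was called and 1 had an unadjusted p under 0.05. Lower at that line were 15.2% of all tested miRNAs. DESeq2 called 0, edgeR without the filter called miR-499-5p lower, and edgeR without control replicate 1 called 0. Their sum ran from 17252 to 62256 CPM in control, from 13905 to 14992 CPM in stress replicates 1 and 2, and was 128 CPM in stress replicate 3. miR-1a-3p, the main miRNA of striated muscle, led them (-2.26 ± 1.51, edgeR adjusted p = 0.406). The cluster was 6.93% to 15.7% of the muscle sum in 5 libraries and 896% in stress replicate 3, where that sum was 128 CPM. Without stress replicate 3 the median of the tested cluster members, then 36, was -1.19, and miR-1a-3p was at -1.68. The part of muscle in the cluster's values was not tested.

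Lists for other cell types differed less or in the other direction. Both endothelial arms of miR-126a were lower (median -0.66), and 4 of 5 leukocyte miRNAs were lower with a median of -0.21. The fifth, miR-223-3p of neutrophils and other myeloid cells, was 0.70 ± 0.26 higher (edgeR adjusted p = 0.178). The 5 tested epithelial miRNAs of the miR-200 family were all higher (median 0.55). The cluster was 28.2% to 192% of the sum of the epithelial list, which also holds the untested miR-205-5p. That sum ran from 2246 to 5637 CPM over the libraries, and the cluster's from 1143 to 5809.9 CPM. The arms of miR-9 were both higher (median 0.52), and of the further neural miRNAs miR-124-3p had 1 read in all and miR-137-3p none. The erythroid miR-451a was 0.17 higher, and turned to -0.18 without control replicate 1 and -0.13 without stress replicate 3. In edgeR with the filter and all 6 libraries none of these lists had a called member, and 4 of their 16 tested members had an unadjusted p under 0.05. Over all tested miRNAs that share was 23.8% in either direction. DESeq2 called miR-126a-3p, lower. Without the filter edgeR called miR-126a-3p lower and miR-141-3p, miR-200a-3p and miR-223-3p higher. Without control replicate 1 it called miR-126a-3p lower and miR-141-3p, miR-200a-3p, miR-429-3p and both arms of miR-9 higher. Over all miRNAs these fits called 6.81%, 6.14% and 16.6% in either direction. The part of these cells in the cluster's values was not tested.

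**Figure D5:**
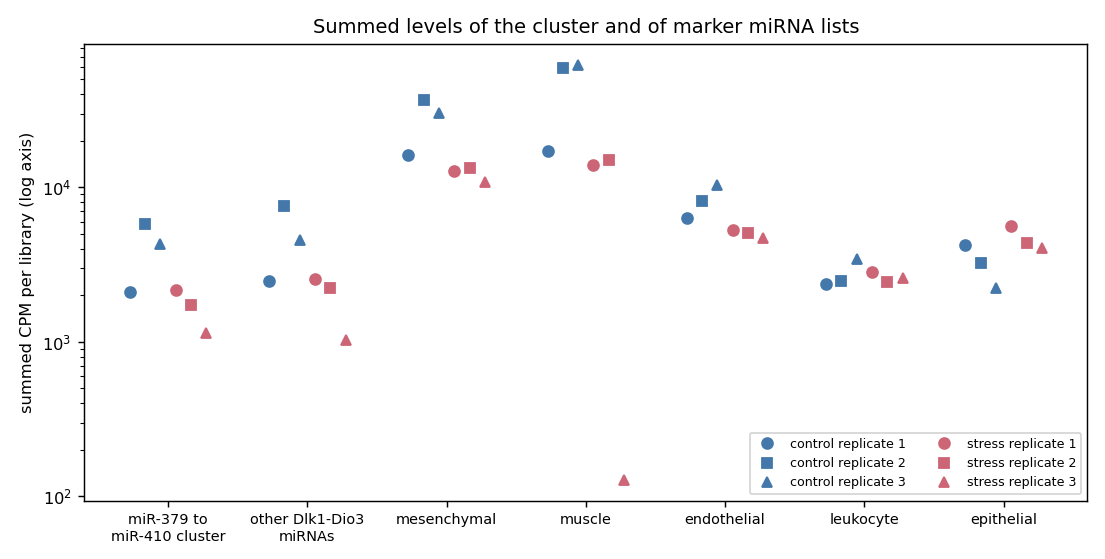
Summed CPM on a log axis of the cluster, the other Dlk1-Dio3 miRNAs and marker miRNA lists in each library, with control in blue and stress in red. In the cluster and the other domain miRNAs control replicate 1 lies just below stress replicate 1, in the mesenchymal list it is the control nearest to the stress libraries, and the muscle list is at 128 CPM in stress replicate 3.

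In the mRNA libraries, 1 protein-coding gene of the domain could be tested and did not pass. The deposited values are on a log2 scale, and the labels do not say that mRNA and miRNA libraries of one number came from one tumour. Dio3, the thyroid hormone deiodinase at the far end of the domain, had log2 values of 4.60, 4.80 and 4.99 in control and 4.68, 4.61 and 4.53 in stress. The groups overlapped, with a difference of -0.19 ± 0.10 (limma adjusted p = 0.355). Dlk1 (1.76 to 1.84) and Rtl1 (2.55 to 2.61) were below the mean log2 value of 4 needed for the test. Meg3, Rian and Mirg were not analysed here.

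The miRNA processing genes did not pass either. Of 10 tested, among them Drosha, Dgcr8 and Dicer1, 4 were higher and 6 lower, with 0 called and 0 at an unadjusted p under 0.05 in limma. Over all 14098 genes 5 were called (0.0355%) and 2455 had an unadjusted p under 0.05 (17.4%). Ago2, an Argonaute protein that binds mature miRNAs, had the smallest p (0.16 ± 0.08, limma adjusted p = 0.355). Of 8 genes for imprint maintenance and MEF2, 0 were called and 2 had an unadjusted p under 0.05, a share near that of all genes. These were Mef2d (0.17 ± 0.07, limma adjusted p = 0.255) and Zfp57, which guards imprints (-0.22 ± 0.09, limma adjusted p = 0.270).

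Fibroblast and muscle genes were lower in most cases in these libraries too. Of 8 fibroblast genes 7 were lower (median -0.49, 0 called in limma, 4 at an unadjusted p under 0.05). Over all 14098 tested genes 17.4% stood at that line in either direction, and the median difference was 0.001. The fibroblast list's mean log2 value ran from 11.83 to 12.62 in control, lowest in replicate 1, and from 11.64 to 11.94 in stress. Thy1, a surface protein found on fibroblasts though not on them alone, had the smallest p (-0.49 ± 0.07, limma adjusted p = 0.0769). Pdgfra went the other way, higher in stress (0.19 ± 0.11, limma adjusted p = 0.415). The part of fibroblasts in these values was not tested. All 8 muscle genes were lower (median -0.93, 0 called, 3 at an unadjusted p under 0.05, beside 17.4% of all genes). Their mean log2 value was 8.74 to 10.01 in control and 7.70 to 9.04 in stress. Epithelial genes were split, 3 higher and 3 lower, and Krt8 (13.75 to 13.89), Krt18 and Epcam were high in every library.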

How the data were processed

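The authors deposited whole-number miRNA counts, 1 row for each pair of mature name and precursor. The tool that produced them was not given in the sources used here. Of 2128 rows, 85 mature names stood on more than 1 precursor row, and the row with the highest total was kept. The deposited mRNA values are log2 values despite a name that speaks of counts, with a base of 2 assumed. The transform is not stated, and whether it shrinks low values was not tested. bcl2fastq, kallisto 0.46.1 and mm10 are named in the submitters' processing notes.

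miRNA counts were tested with edgeR 4.0.16 (TMM, filterByExpr, robust quasi-likelihood) on all 462 miRNAs that passed the filter, with DESeq2 1.42.0 as an alternative. The planned edgeR test could not be run on the log2 values, so limma 3.58.1 (trend, robust) was used on the 14098 genes that averaged 4 or more on that scale, in R 4.3.3. Both fits were also run on simulated data. The simulated miRNAs all had the same spread setting, and no single library was shifted. Those runs therefore do not show how the fits behave on these libraries. Tests were two-sided, with Benjamini-Hochberg adjustment over each whole table and a threshold of 0.05. CPM are counts per TMM-scaled library size, and SE is the fold change divided by the root of F.

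Members, lists and naming rules were chosen with earlier results of these data known. The rule named every member called in the filtered edgeR fit of all 6 libraries (0), the 15 most abundant, the 5 smallest p and hairpins with both arms tested. All other members named, miR-380-3p and miR-376b-3p among them, were chosen after their values were seen. Marker lists served as context only. Alternatives were other scaling, filters, summed precursors, a replicate block and each library left out. Sequences were matched by name.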

Additional observations from a re-analysis of the deposited data

How the results depend on the processing

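In the main edgeR test 0 miRNAs were called. Without the low-count filter 69 were called, 24 of them cluster members, and with DESeq2 32, 9 of them members. Leaving out 1 library gave 0 to 82 miRNAs and 0 to 24 members, with every call arising without control replicate 1. The median of the tested members stayed below 0 throughout, from -1.72 to -1.07. Of 490 single values recomputed, 438 kept their direction and side of the threshold and 50 newly passed, under DESeq2 (12), without the filter (18) or without control replicate 1 (20). The 2 that reversed were miR-451a without control replicate 1 (-0.18) and without stress replicate 3 (-0.13), against 0.88 without control replicate 2, and the cause was not tested. The mRNA table had 5 called genes, 8 after quantile normalization, 0 with the replicate block and 0 to 5 without single libraries. The cause was not tested.

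With the replicate number as a block, 0 miRNAs and 0 members were called, and the members' median was -1.39. At an unadjusted p under 0.05 stood 17 of the 30 members, beside 94 of the 462 miRNAs in either direction. Same-numbered libraries did not deviate together (r = -0.48, 0.32 and -0.13 for miRNA, and -0.08, 0.08 and -0.02 for mRNA), so the numbers were not taken as pairs. Depth limits the 27 members under the filter, and 3 reads amount to 0.978 to 1.89 CPM, depending on the library.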
